A study of Mus musculus with 21 samples.

Results

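Hox genes encode transcription factors with a homeodomain and lie in clusters named HoxA, HoxB, HoxC and HoxD, within which members are numbered by their position, so that genes with the same number in different clusters form a paralogue group. In the embryo their order along the chromosome follows the order in which they are active from head to tail. In the adult, Hoxa9 and Hoxa7 are known for their activity in hematopoietic stem and progenitor cells, Hoxb4 for promoting stem cell self-renewal when overexpressed, and several HoxA to HoxD genes are active in the mammary gland. The members described here were the genes whose symbol is Hox followed by a cluster letter and a number in any of the 4 deposited tables. These were 27 of 20392 genes, and 27 of the 39 Hox genes annotated in mouse, namely 9 of HoxA, 8 of HoxB, 6 of HoxC and 4 of HoxD. The other 12, among them Hoxa11, Hoxb1 and Hoxd1, were not analysed here.

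All animals carried MMTV-PyMT, a transgene that drives the polyoma middle T antigen from a mammary tumour virus promoter and gives mammary tumours. RNA sequencing compared mammary tumours of sedentary and of physically active mice at week 12 and at week 18, and hematopoietic stem cells (HSC) sorted from sedentary and active mice at week 12 and, at week 14, from sedentary mice that had received cells of active mice, called transplant HSC below. Each of the 7 groups held 3 libraries that the labels call biological replicates, and nothing says that they came from separate animals, so p-values measure the spread between these libraries, which may be technical. The labels do not name the markers used to sort the HSC. RNA came from tumours by TRIzol and from HSC with the RNAqueous-Micro kit, and in the transplant group the transplantation and the later week cannot be told apart.

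Tumour libraries held 20838963 to 28973775 reads, HSC libraries of replicates 1 and 2 held 16406889 to 24574563, and replicate 3 of each HSC group held 58500940 to 72417315. The tumours expressed luminal keratins and other luminal markers at a summed 1943 to 4722 RPM (reads scaled to a common library size). Of 8 HSC markers, several were low in the HSC libraries. Slamf1 lay between 1.59 and 15.4, Fgd5 between 0.0962 and 3.90, Procr between 1.05 and 4.14 and Mecom between 1.56 and 6.12 RPM. Hlf lay between 7.02 and 27.55 and Ly6a between 22.0 and 55.4 RPM. Mpo, a granule enzyme of myeloid progenitors and neutrophils, lay between 1809 and 8132 RPM. Cd34 and Kit, which progenitors share with stem cells, lay between 201 and 622 and between 171 and 246. These libraries are therefore called by their label, HSC, without a claim on their purity. The 8 HSC markers summed to 478 to 903 in HSC and 311 to 965 in tumours, so the list as a whole does not set HSC apart, whereas Mpo reached at most 0.763 in tumours. One library has no settled identity: active HSC replicate 2 is a column of both HSC tables, and the columns differed at 13105 of 13399 shared genes, where replicates 1 and 3 differed at 4. Levels of active HSC use the column of the table of sedentary and active mice, tests use the column of their own table, and the values with the other column are given beside the results that include it.

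Members are placed by GENCODE M21 on GRCm38 (mm10). HoxA lies on chromosome 6 on the minus strand, HoxB on chromosome 11 from 96194316 to 96368256, HoxC on chromosome 15 from 102921103 to 103036852 and HoxD on chromosome 2 from 74668310 to 74765142, the last 3 on the plus strand. Neighbours overlap: 7 members share exonic bases with a gene of the same strand and 8 with an antisense gene. Hoxc10 and Hoxc5 share 166 bases, Hoxd4 shares exons with Hoxd3, and Hoxb3 and Hoxb2 lie opposite Hoxb3os. The libraries were stranded per the labels, but the strand setting of the counting was not given in the sources used here, so values of these members could hold reads of their partners.

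All 27 members were listed in the tumour tables, 12 in the table of sedentary and active HSC and 14 in that of active and transplant HSC. Levels are compared between genes as RPKM, the RPM divided by the exonic length in kilobases. In tumours the order was led by Hoxb3, with 2.94 ± 5.12 (SD, n = 12), Hoxb4 with 2.52 ± 3.49, Hoxc8 with 1.71 ± 2.65, Hoxb2 with 1.62 ± 2.27 and Hoxc6 with 1.099 ± 1.39. The SD exceeded the mean for each of these 5 genes, and their ranges overlapped, so the order among them is not resolved. The lowest mean belonged to Hoxd10, with 0.0872 ± 0.179. In HSC, Hoxa9 came first with 6.46 ± 4.08 (n = 9), then Hoxa7 with 3.59 ± 2.54, and Hoxb4 with 3.15 ± 0.386, and Hoxa5, also among the 5 highest, reached 0.805 ± 0.447. Relative to its mean, Hoxb4 was the steadiest of these 4, between 2.34 and 3.62 RPKM in the 9 libraries, whereas Hoxa9 ran from 0.5945 to 12.2. With the other column of active replicate 2 the means were 7.62 ± 3.66 for Hoxa9, from 2.34 to 12.2, 4.20 ± 2.31 for Hoxa7, 3.25 ± 0.535 for Hoxb4 and 0.958 ± 0.451 for Hoxa5.

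**Figure D1:**
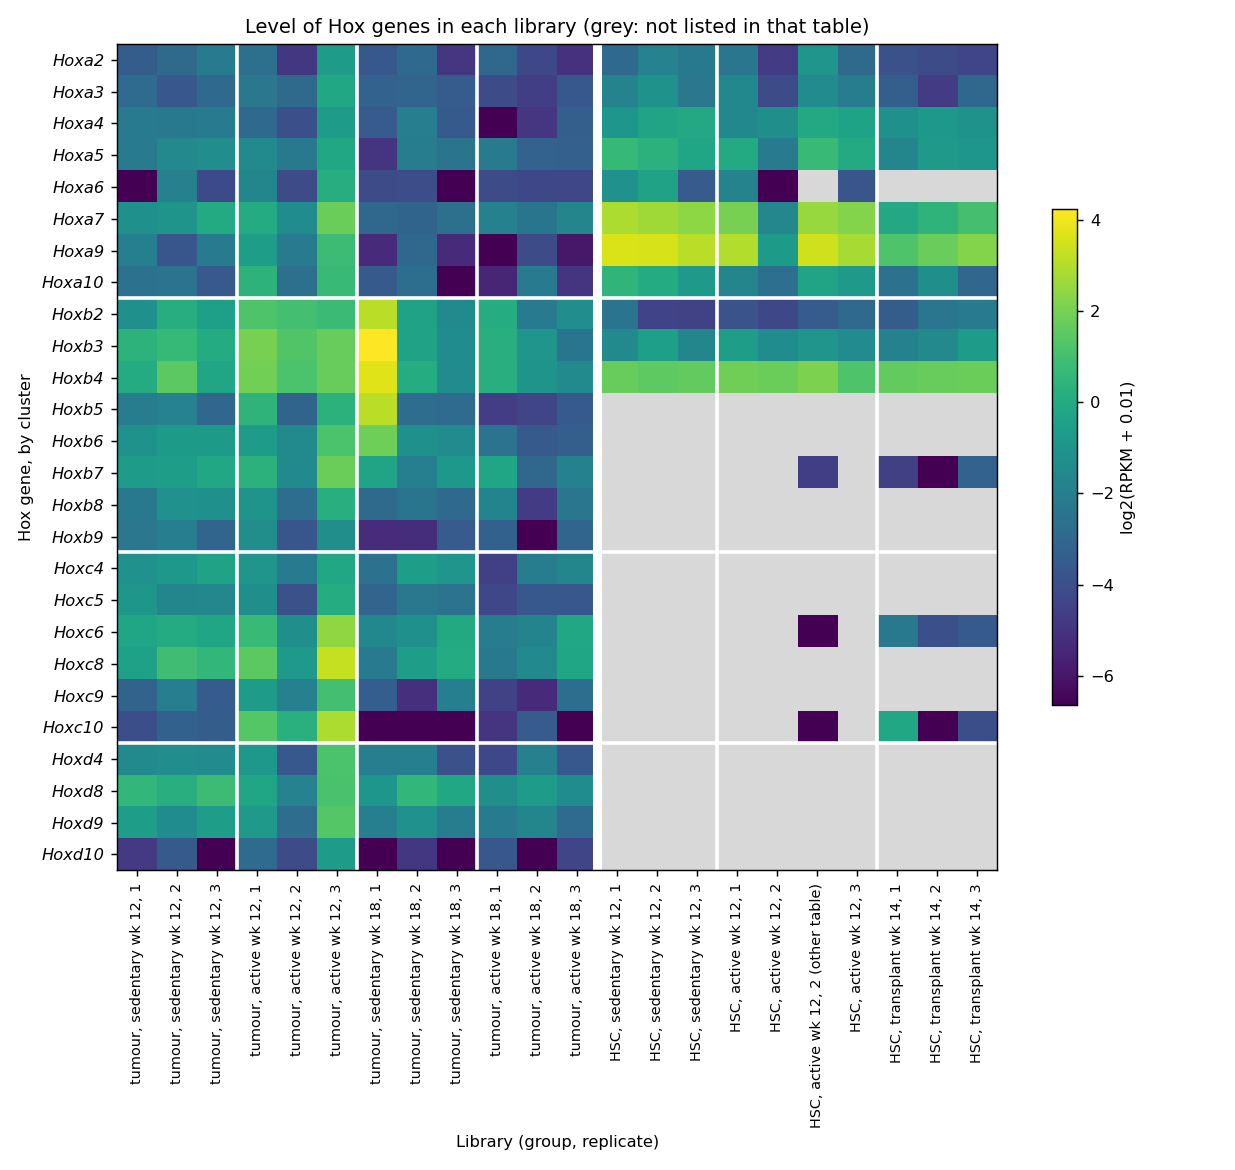
RPKM (colour, log2 scale with a small constant added) of 26 of the 27 Hox genes (rows, by cluster) in each library (columns, by group and replicate, with both columns of active HSC replicate 2); grey cells were not listed in that table. Hoxa9 and Hoxa7 lead in most HSC columns, and in tumours single columns stand out, with Hoxb3 at 18.8 RPKM in sedentary week 18 replicate 1.

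The 5 leading genes of the tumours varied mostly through 2 libraries. Hoxb3 measured 1.29, 1.54 and 1.03 RPKM in sedentary tumours of week 12, 3.97, 2.44 and 3.22 in active tumours of week 12, 18.8, 0.764 and 0.386 in sedentary tumours of week 18 and 1.17, 0.494 and 0.179 in active tumours of week 18. Hoxb4 measured 1.03, 2.81 and 0.847, then 3.74, 2.23 and 3.22, then 12.97, 1.05 and 0.374, and 1.13, 0.480 and 0.363 in the same groups. Hoxb2 measured 0.427, 1.07 and 0.690, then 2.34, 1.95 and 1.67, then 8.52, 0.760 and 0.356, and 1.07, 0.208 and 0.396. In all 3 genes, which are neighbours in HoxB, replicate 1 of the sedentary week 18 tumours was the highest of the 12 libraries. Hoxc8, which lies in HoxC, measured 0.729, 1.85 and 1.48, then 2.81, 0.560 and 9.77, then 0.219, 0.649 and 1.03, and 0.200, 0.358 and 0.841 RPKM. Its neighbour Hoxc6 measured 0.837, 1.03 and 0.822, then 1.61, 0.416 and 5.31, then 0.326, 0.426 and 0.963, and 0.235, 0.286 and 0.917 RPKM. For both HoxC genes the highest library was active week 12 replicate 3.

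In the HSC groups the replicates of the leading genes lay closer together, except for active replicate 2. Hoxa9 measured 12.2, 11.8 and 8.60 RPKM in sedentary, 7.79, 0.5945 and 6.98 in active and 2.34, 3.31 and 4.56 in transplant HSC. Hoxa7 measured 7.35, 6.49 and 5.26, then 3.98, 0.318 and 4.61, and 0.943, 1.33 and 2.05 in the same groups. Active replicate 2 was far below its group in both genes, and the groups of sedentary and transplant HSC did not overlap. Hoxb4 measured 3.24, 2.85 and 3.04, then 3.62, 3.41 and 2.34, and 3.08, 3.28 and 3.49 RPKM, so its groups overlapped throughout. Hoxa5 measured 1.55, 1.27 and 0.847, then 0.998, 0.205 and 1.01, and 0.310, 0.560 and 0.508 RPKM.

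To show the sequence in front of 4 HoxA genes that fell in transplant against sedentary HSC (values are given with that comparison), beside Hoxb4, which did not pass there, promoter bases from RefSeq (GRCm38.p6) are printed for the 250 bases upstream of the annotated start, 5′ to 3′ on the strand of the gene. RefSeq promoters were found for 14 of the 27 members. Both strands were searched for TGACAG (the Meis and Pknox core), TGATTNAT (a site of Pbx with Hox), CCAAT (NF-Y) and CACGTG (an E-box), and matches are in capitals, so that ATTGG, for example, is CCAAT on the other strand.
Hoxa2, chr6:52164832-52165081, minus strand: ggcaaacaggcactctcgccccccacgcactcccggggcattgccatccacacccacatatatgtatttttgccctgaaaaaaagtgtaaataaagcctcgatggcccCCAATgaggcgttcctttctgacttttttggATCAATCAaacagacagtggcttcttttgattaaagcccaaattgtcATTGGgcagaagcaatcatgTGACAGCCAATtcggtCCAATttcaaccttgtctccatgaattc
Hoxa5, chr6:52204588-52204837, minus strand: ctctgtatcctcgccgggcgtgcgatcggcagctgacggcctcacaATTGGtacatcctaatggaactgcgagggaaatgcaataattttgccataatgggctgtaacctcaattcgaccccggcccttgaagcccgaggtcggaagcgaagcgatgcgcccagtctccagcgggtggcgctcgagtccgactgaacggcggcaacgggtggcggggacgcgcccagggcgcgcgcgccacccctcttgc
Hoxa7, chr6:52218574-52218823, minus strand: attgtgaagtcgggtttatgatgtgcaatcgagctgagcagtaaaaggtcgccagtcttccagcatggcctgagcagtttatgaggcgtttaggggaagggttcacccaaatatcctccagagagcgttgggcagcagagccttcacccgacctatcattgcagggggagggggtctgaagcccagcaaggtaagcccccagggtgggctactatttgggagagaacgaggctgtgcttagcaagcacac
Hoxa9, chr6:52227371-52227620, minus strand: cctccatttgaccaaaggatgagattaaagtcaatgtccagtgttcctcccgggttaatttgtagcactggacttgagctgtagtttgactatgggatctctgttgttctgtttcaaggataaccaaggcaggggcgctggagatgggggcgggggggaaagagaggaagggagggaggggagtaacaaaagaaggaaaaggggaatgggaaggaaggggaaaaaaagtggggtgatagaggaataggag
Hoxb4, chr11:96318017-96318266, plus strand: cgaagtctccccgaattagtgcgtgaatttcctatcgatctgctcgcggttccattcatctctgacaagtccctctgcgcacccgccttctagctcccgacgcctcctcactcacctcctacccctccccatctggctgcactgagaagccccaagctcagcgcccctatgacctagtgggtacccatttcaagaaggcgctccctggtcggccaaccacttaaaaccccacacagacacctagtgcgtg

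Upstream of its start, Hoxa2 held 1 match to TGACAG, which 15.9% of 32851 promoters of this length hold, 1 to TGATTNAT (2.82%) and 4 to CCAAT (33.8%). Hoxa5 held 1 CCAAT. Hoxa7, Hoxa9 and Hoxb4 held none of these letters in this window, nor did any of the 5 hold CACGTG (6.02%). A match is a description and not a site. Of these motifs, CCAAT was common to Hoxa2 and Hoxa5, and none to all 4 genes that fell. GC content ran from 46.4% in Hoxa2 through 49.6% in Hoxa9, 54.8% in Hoxa7 and 58% in Hoxb4 to 63.6% in Hoxa5.

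Cluster usage differed between the tissues. In HSC, HoxA held a median 78.1% of the summed Hox RPKM (range 42.6% to 86.8%, n = 9 libraries) and HoxB 21.9% (13.2% to 57.4%). With the other column of active replicate 2 these were 81.5% (54.8% to 86.8%) and 18.5% (13.2% to 34.2%). No HoxD gene was listed in either HSC table, and HoxC reached at most 11.0%, through Hoxc6 and Hoxc10 in transplant HSC. In tumours HoxB held a median 40.0% (26.8% to 95.7%, n = 12), HoxC 25.05% (1.61% to 43.3%), HoxA 13.3% (0.928% to 18.3%) and HoxD 12.6% (1.79% to 27.1%). The HoxA share in every HSC library exceeded that in every tumour. By group, the HoxA share was 85.7% ± 1.70 in sedentary HSC (SD, n = 3), 68.4% ± 22.5 in active HSC, or 81.0% ± 3.21 with the other column of replicate 2, and 62.4% ± 6.55 in transplant HSC. The tables list different genes, and a share counts listed genes only.

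**Figure D2:**
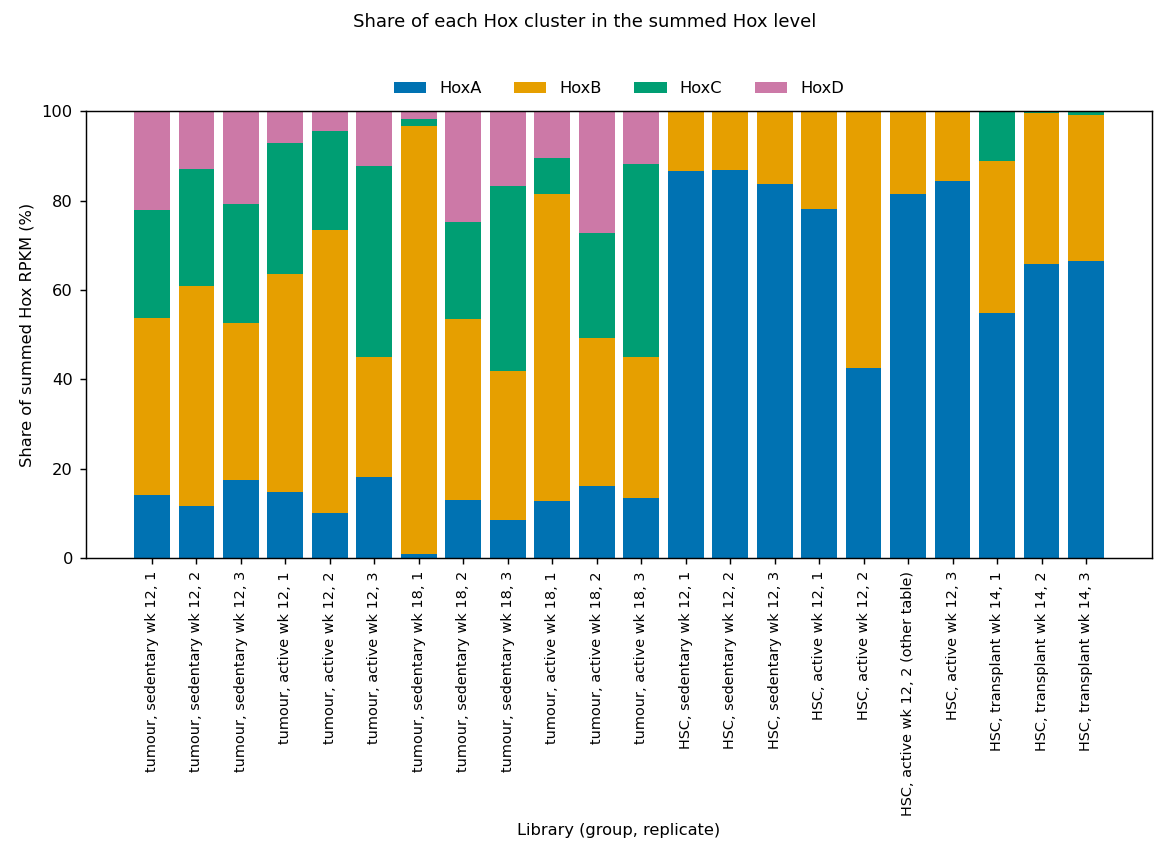
Share (%) of each Hox cluster in the summed Hox RPKM (bars, stacked to 100%) in each library, by group and replicate, with both columns of active HSC replicate 2. HoxA holds most of the level in HSC libraries except one column of active replicate 2, at 42.6%, and HoxB holds 95.7% in sedentary week 18 tumour replicate 1.

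Paralogue usage differed as well. Genes of groups 9 to 13, the 5′ end of the clusters, held a median 40.6% of the summed Hox RPKM in HSC (11.1% to 48.2%) and 8.84% in tumours (0.793% to 26.4%). The lowest HSC value is that of active replicate 2, and with its other column the HSC median was 41.9% (33.0% to 48.2%). Genes of groups 4 to 8 held a median 48.8% in HSC (44.7% to 65.1%) and 67.7% in tumours (45.1% to 78.8%), and these ranges overlapped. With the other column the HSC median was 48.7% (44.7% to 51.3%), still with overlap. Within paralogue group 4, Hoxb4 led in both tissues, with 84.2% ± 6.02 of the group in HSC (SD, n = 9) and 61.5% ± 22.1 in tumours (n = 12). In group 9, Hoxa9 was the only gene listed in HSC, whereas in tumours Hoxd9 led with 50.4% ± 20.2. In group 7 the lead passed from Hoxa7 in HSC, with 99.1% ± 1.76, to Hoxb7 in tumours, with 59.7% ± 14.9. Hoxb7 was listed only for the 3 transplant libraries among these HSC, where it held 2.60% ± 2.36. In the sedentary and active libraries Hoxa7 made up the whole group by listing alone. Group 3 was led by Hoxb3 in both, with 71.98% ± 13.7 in HSC and 89.8% ± 8.27 in tumours. With the other column the HSC shares were 83.5% for Hoxb4, 99.1% for Hoxa7 and 68.5% for Hoxb3. These shares are descriptions, and libraries of a tissue share their extraction.

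To set the tissues on a common scale, reads of sedentary tumours and sedentary HSC, both of week 12, were scaled together and tested with limma on log2(normalized read count + 1), the scale of every fold change below. Of 12 members listed in both, 10 passed an adjusted p of 0.05, against 73.0% of all 12426 genes tested, so the count is close to the background. All 7 HoxA genes among them were lower in tumours. Hoxa9 measured 33.0, 8.04 and 27.9 normalized reads in tumours and 1764, 1658 and 1231 in HSC, a log2 fold change of -6.21 (SE 0.52, limma adjusted p = 0.000111). Hoxa7 measured 29.6, 31.2 and 66.6 against 546, 470 and 388, a log2 fold change of -3.52 (SE 0.34, adjusted p = 0.000194). Neither gene overlapped between the tissues. Hoxa10 measured 12.5, 12.1 and 5.40 against 115, 84.5 and 48.2 (log2 fold change -2.92, SE 0.42, adjusted p = 0.00111). Hoxa5 measured 9.11, 14.1 and 17.1 against 75.0, 59.9 and 40.8 (-2.04, SE 0.30, adjusted p = 0.00126). In each of these genes the lowest HSC library lay above the highest tumour.

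The anterior genes Hoxa4 and Hoxa3 followed with smaller differences. Hoxa4 measured 7.97, 7.04 and 8.10 normalized reads in tumours and 21.2, 32.3 and 38.2 in HSC (log2 fold change -1.82, SE 0.23, limma adjusted p = 0.000563). Hoxa3 measured 18.2, 9.05 and 17.1 against 43.9, 70.7 and 28.9 (-1.60, SE 0.40, adjusted p = 0.0113). The HoxB genes divided. Hoxb4 was lower in tumours, at 62.6, 160.9 and 50.4 against 215, 184 and 200 (-1.31, SE 0.43, adjusted p = 0.0325), and its call was lost in 5 of 6 fits without 1 library, with adjusted p up to 0.0919. Hoxb2 and Hoxb3 were higher in tumours: Hoxb2 measured 35.3, 83.5 and 55.8 against 15.6, 3.07 and 3.07 (3.10, SE 0.63, adjusted p = 0.00483), and Hoxb3 measured 129.7, 146 and 102 against 39.6, 75.3 and 33.8 (1.40, SE 0.32, adjusted p = 0.00844). Hoxa6 and Hoxa2 overlapped between the tissues and did not pass. Without overlap, 8 members were lower and 2 higher in tumours, against 37.7% and 40.6% of all genes, and the 8 and 2 calls stand beside 34.9% and 38.1% of all genes called in those directions. Tissue, extraction method and table differ together here and cannot be told apart. In these bulk samples, fewer cells that express a gene and less of its RNA per cell cannot be told apart either.

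In tumours of week 12, the comparison of active with sedentary mice gave no member past the limma threshold, of 27 tested, against 0.517% of all 19162 genes. Before adjustment 4 members had p under 0.05, all higher in active tumours, where 1.60% of all genes were. They were also the only 4 members whose groups did not overlap, all in the higher direction, against 4.36% of all genes. Hoxc10, at chr15:102966796-102971893, measured 2.40, 4.22 and 3.74 normalized reads in sedentary and 115, 55.6 and 351 in active tumours. Every active library stood far above every sedentary one. The log2 fold change was 4.92 (SE 0.69, limma adjusted p = 0.0864), and over the alternatives it ran from 4.03 to 5.62, with adjusted p from 3.56e-08 to 0.412. Hoxb3 measured 137, 153 and 106 against 396, 256.5 and 340 (log2 fold change 1.32, SE 0.24, adjusted p = 0.225). Its neighbour Hoxb2 measured 37.2, 87.5 and 58.0 against 191, 168 and 145 (1.52, SE 0.34, adjusted p = 0.427). Hoxc9, which lies next to Hoxc10, measured 6.00, 13.7 and 4.68 against 35.5, 15.45 and 119 (2.32, SE 0.81, adjusted p = 0.970). Its lowest active library was close to its highest sedentary one.

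The count of members past the threshold depended on the tool. DESeq2 on the recovered reads called 3 members, Hoxc10, Hoxb3 and Hoxb2, with adjusted p of 3.56e-08, 0.000453 and 0.0201, all higher, where it called 0.0731% of all genes higher and 208 genes in either direction. edgeR called 0, with 6 members at an unadjusted p under 0.05. In the authors' deposited table the same 3 genes had adjusted p under 0.05, with Hoxc10 at 8.92e-07, Hoxb3 at 0.000608 and Hoxb2 at 0.0299, as had 1.06% of all genes in that table. The median fitted difference of the 27 members was 0.79 on the log2 scale, against 0.01 over all genes, with 23 of 27 fitted higher, where 51.7% of all genes were. Without active replicate 3 the median was -0.01, with 6 members at an unadjusted p under 0.05, 4 of them higher. Without active replicate 2 it was 1.49, and 13 members had an unadjusted p under 0.05 in place of 4.

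Active replicate 3 stood apart within its group: 22 of the 27 members, among them all 9 HoxA, 6 HoxC and 4 HoxD genes, were highest there of all 12 tumours, as were 26.3% of all genes. Hoxc8 reached 687 normalized reads there against 187 and 39.2 in the other active libraries, and Hoxa9 238.6 against 88.4 and 29.9. The same library held the highest summed adipocyte markers, 8299 RPM against 345.5 to 2076 in the other active and 666.5 to 932 in sedentary tumours (all 5 listed). Its B cell markers summed to 565 RPM against at most 4.10 in the other week 12 tumours (4 of 4 listed), its T cell markers to 158 against at most 5.48 (4 of 4), and its luminal markers to 1943, the lowest of the 12. Skeletal muscle markers (8 of 8 listed) summed to 2049 to 4165 in sedentary and 11.0 to 50.6 in active tumours of week 12. Their part in the Hox differences was not tested.

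**Figure D3:**
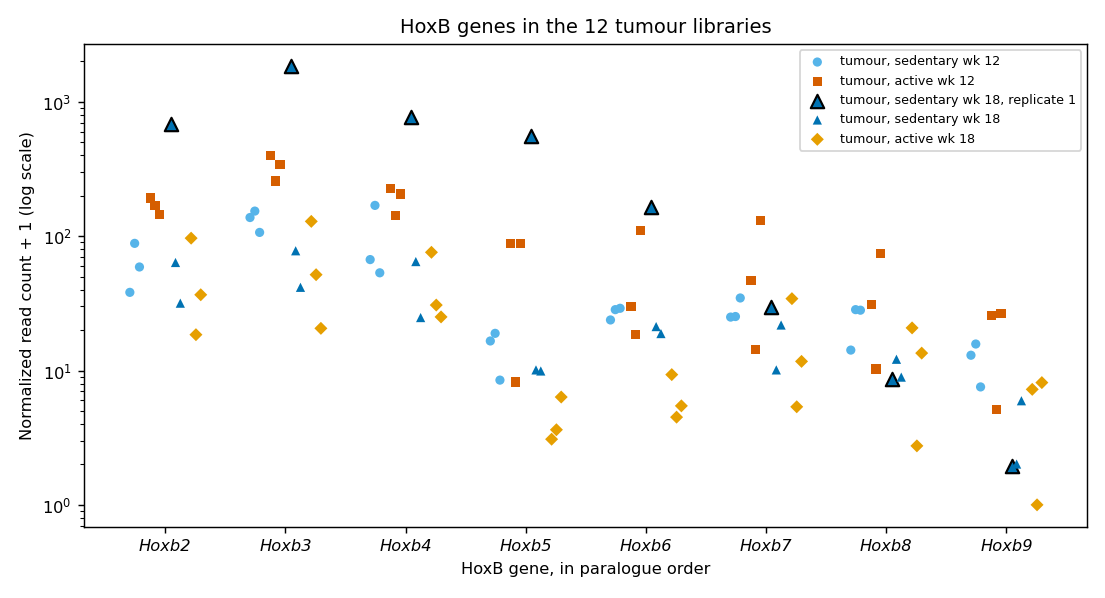
Normalized read count plus 1 (log axis) of the 8 HoxB genes, in paralogue order, in each of the 12 tumour libraries, by group; the outlined triangle is sedentary week 18 replicate 1. That library lies above the 11 others at Hoxb2 to Hoxb6 and among them at Hoxb7 to Hoxb9.

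At week 18, none of 26 members tested passed in active against sedentary tumours, and of all 18939 genes 0, or 0%, passed. Before adjustment 4 members had p under 0.05, where 5.97% of all genes did, and edgeR called none, with 2 members at an unadjusted p under 0.05. Hoxc5 measured 7.66, 14.2 and 12.9 normalized reads in sedentary and 3.12, 5.25 and 5.35 in active tumours (log2 fold change -1.16, SE 0.31, limma adjusted p = 0.802). Hoxa7 went the other way, at 7.66, 7.08 and 10.9 against 19.8, 12.2 and 22.3 (0.98, SE 0.29, adjusted p = 0.824). Hoxb6 measured 163, 20.2 and 17.8 against 8.32, 3.50 and 4.46 (-2.72, SE 0.91, adjusted p = 0.824), and -1.71 without sedentary replicate 1. Hoxa3 measured 13.4, 15.2 and 11.9 against 7.28, 4.37 and 10.7 (-0.84, SE 0.32, adjusted p = 0.824). None of these 4 genes overlapped between the groups, although several values lie close to each other. In all, 1 member was higher and 4 were lower without overlap, Hoxb5 being the other, against 6.03% and 7.57% of all genes. DESeq2 called 0 members, and the authors' deposited table listed 0 under 0.05.

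The HoxB genes of sedentary week 18 replicate 1 made that library unlike the others. Hoxb3 reached 1852 normalized reads there, where the other 11 tumours had a median of 128 and a highest value of 396. Hoxb4 reached 773 (median of the others 66.0, highest 225), Hoxb2 689 (62.7 and 191), Hoxb5 558 (8.92 and 87.5) and Hoxb6 163 (20.2 and 109). These 5 adjacent genes were the only members of 27 above all other tumours in that library, as were 13% of all genes. Hoxb7, Hoxb8 and Hoxb9, which continue the cluster on its 5′ side, measured 28.7, 7.66 and 0.957 there, within the values of the others. Of the other transcripts listed within the cluster, the antisense Hoxb5os had 23.9 normalized reads in that library and 0 in the 11 others, and Gm11536 had 10.5 against at most 6.69. The antisense Hoxb3os, at 38.3, lay within the others (0 to 57.99), as did Gm53, at 0. Genes outside the cluster lay within the range of the other tumours: Snf8 at 885, Ube2z at 4632, Atp5g1 at 2861 and Skap1 at 6.70.

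In the same library Meis1, a cofactor that binds DNA together with Hox and Pbx proteins, measured 2070 normalized reads, against 102.5 to 995 in the 11 other tumours. Meis1 was singled out here after its values were seen. Its summed skeletal muscle markers (15.4 RPM, 8 of 8 listed) were the lowest of the 6 tumours of week 18, and its adipocyte (25.3, 5 of 5) and fibroblast markers (1764, 6 of 6) the lowest of the sedentary ones. Luminal markers summed to 2552 RPM, the lowest at that week, and basal markers to 860, the highest of the 12. Their part in the HoxB values was not tested. Without this library the median fitted difference of active over sedentary tumours at week 18 was -0.39, against -0.54 with it and 0.01 over all genes.

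The difference between the activity effects of the 2 weeks was tested as an interaction over the 12 tumours. No member of 27 passed, against 0.0104% of all 19241 genes. Hoxc10 had the smallest p, with an effect at week 18 lower by a log2 difference of -3.85 (SE 0.94, limma adjusted p = 0.354). Hoxb6 (-3.27, SE 1.21), Hoxa3 (-2.24, SE 0.90) and Hoxb5 (-4.74, SE 2.11) also had an unadjusted p under 0.05, with adjusted p of 0.728, 0.770 and 0.770. All 4 were lower, where 3.53% of all genes were lower at that level, and 24 of 27 members were fitted lower, where 51.5% of all genes were. In fits without 1 library the count of 4 ran from 2 to 7, with 7 without active week 12 replicate 2 and without sedentary week 18 replicate 3, and 2 without sedentary week 12 replicate 2, active week 12 replicate 3, sedentary week 18 replicate 1 or active week 18 replicate 2. edgeR and DESeq2 called 0 members, with 8 and 6 at an unadjusted p under 0.05. Without the 2 tumour libraries that stand apart, 3 members did so and the median of the members moved from -1.17 to -0.49, an alternative added after seeing the data.

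Between week 18 and week 12, with activity as a term, limma called 0 of 27 members and 0 of 19241 genes, or 0%. All 27 members were fitted lower at week 18, where 54.1% of all genes were, with a median log2 fold change of -1.31 against -0.04 over all genes. At an unadjusted p under 0.05, 14 members were lower and 0 higher, where 8.09% of all genes were lower. They comprised 6 of 9 HoxA, 2 of 8 HoxB, 5 of 6 HoxC and 1 of 4 HoxD genes. The fit is on log values, and sedentary group means went the other way at Hoxb2 to Hoxb6, which are high in sedentary week 18 replicate 1. In sedentary tumours Hoxb3 averaged 131.8 ± 23.9 normalized reads at week 12 and 656.4 ± 1035 at week 18. All 12 tumours were scaled together for these values. Members of a cluster are not independent, and each median describes these 12 libraries. Without the 2 libraries that stand apart, 12 members had an unadjusted p under 0.05, with a median of -1.09. Leaving out 1 library gave counts from 8 to 21. The lowest, 8 and 9, came without active week 12 replicate 1 and without active week 12 replicate 3 or active week 18 replicate 2, and the highest without active week 12 replicate 2.

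Hoxc10, Hoxa7 and Hoxa9 had the smallest p-values. At week 12, Hoxc10 measured 2.40, 4.22 and 3.74 normalized reads in sedentary and 115, 55.6 and 351 in active tumours, and at week 18 it measured 0 in all 3 sedentary and 1.04, 3.50 and 0 in active tumours. Its week effect was a log2 fold change of -4.06 (SE 0.74, limma adjusted p = 0.374). Hoxa7 measured 31.2, 32.7 and 69.2, then 69.2, 26.8 and 245 at week 12, and 7.66, 7.08 and 10.9, then 19.8, 12.2 and 22.3 at week 18 (-2.12, SE 0.45, adjusted p = 0.374). All 6 tumours of week 12 lay above all 6 of week 18 for Hoxa7. Hoxa9 measured 34.8, 8.43 and 29.0, then 88.4, 29.9 and 238.6 at week 12, and 1.92, 15.2 and 1.98, then 0, 6.12 and 0.891 at week 18 (-3.63, SE 0.84, adjusted p = 0.374). Only its value of 8.43 lay within the range of the later week.

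Hoxb9 (-1.99, SE 0.61), Hoxc5 (-1.67, SE 0.56) and Hoxa5 (-1.41, SE 0.48) followed, each with a limma adjusted p of 0.375. Group means of Hoxb9 were 11.1 ± 4.18 and 18.1 ± 12.1 normalized reads in sedentary and active tumours of week 12 and 2.31 ± 2.29 and 4.46 ± 3.89 at week 18 (SD, n = 3 each). For Hoxc5 they were 28.8 ± 10.4 and 38.2 ± 38.7, then 11.6 ± 3.45 and 4.57 ± 1.26. For Hoxa5 they were 14.04 ± 4.14 and 22.4 ± 17.6, then 6.34 ± 4.78 and 6.41 ± 3.46. DESeq2 called 4 members lower, Hoxc10 at an adjusted p of 1.18e-07, Hoxa7 at 0.00141, Hoxa9 at 0.0142 and Hoxc5 at 0.0442, where it called 1.26% of all genes lower. edgeR called 0, with 15 members at an unadjusted p under 0.05. Marker sums overlapped between the weeks. Adipocyte markers ran from 345.5 to 8299 RPM at week 12 and from 12.9 to 623 at week 18. Endothelial markers (4 of 4 listed) ran from 114 to 553.5 and from 74.1 to 115.7 RPM. The highest value of both was that of active week 12 replicate 3. Skeletal muscle markers ran from 11.0 to 4165 and from 15.4 to 554 RPM, and luminal markers from 1943 to 3596 and from 2552 to 4722 RPM. Their part in the week difference was not tested.

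**Figure D4:**
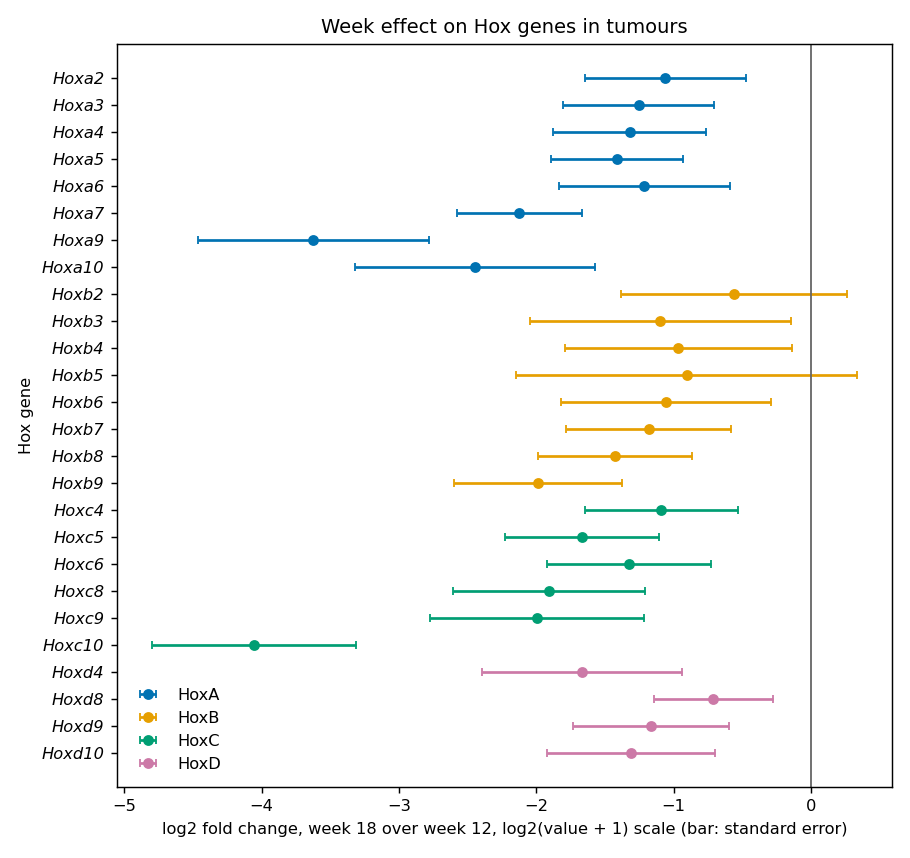
Log2 fold change of week 18 over week 12 tumours (points, activity as a term, log2(value + 1) scale) for 26 of the 27 Hox genes, by cluster, with bars of 1 standard error. All points lie left of 0, between -4.06 for Hoxc10 and -0.56 for Hoxb2, and none passed the adjusted threshold.

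In HSC of active against sedentary mice at week 12, none of 12 members passed, and of all 13513 genes 0 passed, or 0%. At an unadjusted p under 0.05, limma gave 2 members, of which Hoxa10 is described, edgeR 1 and DESeq2 1, where limma gave 9.27% of all genes. Hoxa10 measured 26.1, 12.9 and 49.65 normalized reads in active and 121, 88.4 and 49.77 in sedentary HSC (log2 fold change -1.62, SE 0.56, limma adjusted p = 0.475). Its groups were separated only by the small gap between 49.65 and 49.77. Hoxa9 and Hoxa7 had larger fitted differences, -1.75 (SE 1.02) and -1.79 (SE 1.04), with active replicate 2 at 88.7 and 24.4 normalized reads against 1162 and 1039, and 306 and 353.5, in the other active libraries. Without that library they differed by -0.54 and -0.55. The count of 2 was 0 without active replicate 1, sedentary replicate 1 or sedentary replicate 2, 1 without active replicate 2 and 3 without active replicate 3. Among members, 3 were lower without overlap, against 9.29% of all genes. Neutrophil markers (7 of 7 listed) summed to 3865 to 12260 RPM in active and 2019 to 3022 in sedentary HSC. With the other column of active replicate 2, at 2103 RPM, they overlapped. HSC markers (8 of 8 listed) summed to 533.9 to 799 against 778 to 903 RPM and overlapped. Their part in the Hox differences was not tested.

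With the other column of active replicate 2, 0 of 11 members had an unadjusted p under 0.05, the median of the members was 0.06 instead of -0.88 (log2), Hoxa10 differed by -0.83 (SE 0.47), and Hoxa9 and Hoxa7 by -0.35 (SE 0.24, adjusted p = 0.947) and -0.41 (SE 0.20, adjusted p = 0.947). The columns differed more at some members than at others. Hoxa9 had 69 reads and 0.5945 RPKM in the column of the sedentary and active table and 1323 reads and 11.0 RPKM in the other, a ratio of 18.5. Hoxa7 (19 and 362 reads, ratio 18.4) and Hoxa2 (1 and 19 reads, ratio 18.3) differed alike, Hoxa5 and Hoxa3 by a ratio of 7.72 each, and Hoxb4 (182 and 236 reads) by 1.25. Neutrophil markers summed to 12260 RPM in the first column and to 2103 in the other (7 of 7 listed in both). Mpo held most of each sum, at 6744 and 1811 RPM. Which column holds the library of the label was not settled.

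**Figure D5:**
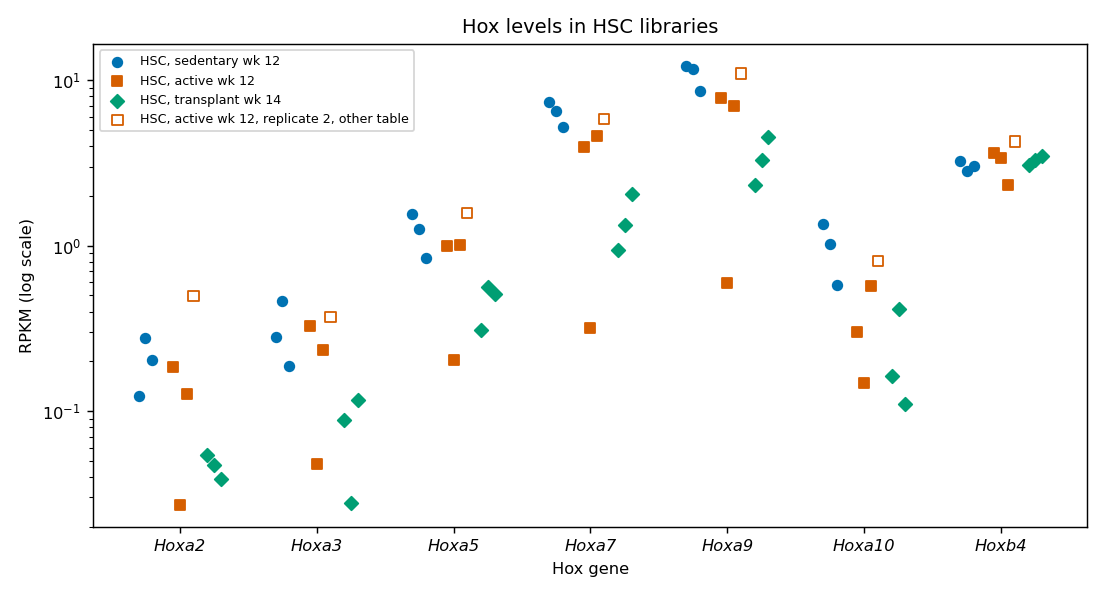
RPKM (log axis) of 7 Hox genes in each HSC library, by group; open squares are the column of active replicate 2 in the table of active and transplant HSC. Sedentary and transplant HSC do not overlap at Hoxa7 and Hoxa9, all HSC libraries lie close together at Hoxb4, and the filled and open squares of active replicate 2 differ 18.5 times at Hoxa9.

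Transplant HSC were compared with active and with sedentary HSC. These comparisons share the transplant libraries. Against active HSC, none of 14 members passed, where 0.0513% of all 13633 genes did. At an unadjusted p under 0.05, 5 members were lower and 1 was higher, where 7.27% and 10.5% of all genes were. The lower ones, all of HoxA, showed no overlap, against 12.1% of all genes. Hoxa7 measured 333, 485 and 392 normalized reads in active and 78.6, 110.7 and 173 in transplant HSC (log2 fold change -1.79, SE 0.32, limma adjusted p = 0.153). Hoxa9 measured 1266, 1772 and 1152 against 377, 534 and 747 (-1.37, SE 0.30, adjusted p = 0.174). Hoxa5 measured 54.6, 85.7 and 55.9 against 16.8, 30.4 and 27.98 (-1.36, SE 0.29, adjusted p = 0.173). The anterior genes Hoxa2, at 9.49, 25.45 and 6.62 against 2.81, 2.43 and 2.03 (-1.91, SE 0.47, adjusted p = 0.193), and Hoxa3, at 57.0, 64.3 and 41.8 against 15.4, 4.87 and 20.7 (-2.09, SE 0.51, adjusted p = 0.193), did not overlap between the groups either. Markers moved with this comparison: neutrophil markers (7 of 7 listed) summed to 6536, 2103 and 3853 RPM in active and 8397, 8629 and 10540 in transplant HSC, and HSC markers (8 of 8 listed) to 554, 877 and 797 against 543, 526 and 478. In the other column of active replicate 2 they were 12260 and 533.9, within or beyond the transplant values. Mpo held most of the neutrophil sum, at 5556, 1811 and 3343 RPM in active and 6268, 6494 and 8132 in transplant HSC. Within the HSC sum Cd34 measured 306, 586 and 482 against 288, 236 and 201 RPM. Fgd5 was lower too, and Hlf, Mecom and Procr overlapped. Slamf1 was higher, at 2.73, 1.95 and 2.34 against 10.3, 4.88 and 3.43 RPM, and read 15.4 in the other column. Their part in the differences was not tested.

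The member that was higher was Hoxc6, with 0 reads in all 3 active libraries and 10, 3 and 13 reads in transplant HSC. Against a floor of 3 reads per library, which transplant replicate 2 only equals, the transplant mean was at least 2.60-fold higher (limma adjusted p = 0.131). Without active reads, Hoxc6 passed the filter only through transplant HSC and could only come out higher. Neither its p nor its lack of overlap is therefore support for a difference. Hoxc10 was also at 0 in the active libraries and had 36, 0 and 7 reads in transplant HSC, so it overlapped, and its direction was fixed in the same way. DESeq2 called 4 members, Hoxa7, Hoxa9, Hoxa3 and Hoxa5, all lower, with adjusted p of 9.14e-06, 8.79e-05, 0.0171 and 0.0334, where it called 2.63% of all genes lower. edgeR called 0, with 7 members at an unadjusted p under 0.05. In the authors' deposited table the same 4 genes had adjusted p under 0.05, with Hoxa7 at 1.31e-05 and Hoxa9 at 0.000121, as had 7.92% of all genes in that table. These differences rest on the column used for active replicate 2. With the other column, 0 of 11 members had an unadjusted p under 0.05, Hoxa7 differed by -0.41 (SE 1.09) and Hoxa9 by 0.03 (SE 1.05), the opposite sign, and Hoxa5, Hoxa2 and Hoxa3 by -0.41 (SE 0.67), -0.77 (SE 0.57) and -1.16 (SE 0.85). Hoxc6 is not listed with that column.

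The comparison of transplant with sedentary HSC uses no active library. The tables were normalized separately by the authors, so the reads recovered from both were scaled together. Of 11 members tested, 5 passed the limma threshold, where 11.6% of all 13348 genes did. Of these, 4 HoxA genes were lower in transplant HSC, where 3.70% of all genes were. Hoxa7 fell from 627, 536 and 439 normalized reads to 78.5, 110.5 and 173 (log2 fold change -2.20, SE 0.31, limma adjusted p = 0.0166), a ratio of means of 4.43. Hoxa9 fell from 2024, 1889 and 1391 to 377, 533 and 747 (-1.71, SE 0.29, adjusted p = 0.0235), a ratio of 3.20. Hoxa5 fell from 86.1, 68.3 and 46.1 to 16.8, 30.4 and 27.98 (-1.38, SE 0.32, adjusted p = 0.0473). Hoxa2 fell from 6.50, 14 and 10.4 to 2.80, 2.43 and 2.03 (-1.67, SE 0.27, adjusted p = 0.0216), on 2 to 5 reads per transplant library. The groups of these 4 genes, whose promoter bases are printed above, did not overlap.

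Hoxa10 (-2.19, SE 0.54, limma adjusted p = 0.0561) and Hoxa3 (-2.03, SE 0.57, adjusted p = 0.0742) did not pass. Hoxa4 measured 24.4, 36.8 and 43.1 in sedentary and 19.6, 25.5 and 22.3 normalized reads in transplant HSC and overlapped. The HoxB genes overlapped too. Hoxb4 measured 247, 210.0 and 226 against 228, 243 and 263 (0.11, SE 0.12, adjusted p = 0.581), Hoxb3 differed by -0.16 (SE 0.44) and Hoxb2 by 1.13 (SE 0.66). Without overlap, 6 members were lower, against 18.4% of all genes. The median of the 11 members was -1.38, with the median of all genes at -0.000441.

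The 5 calls were not stable. With the replicate number as a block 0 members passed, Hoxa7 having the smallest limma adjusted p, 0.0835, and 99 of all genes were called in place of 1553. In fits without 1 library the count was 1 without sedentary replicate 1, 0 without sedentary replicate 2, 1 without transplant replicate 1, 0 without transplant replicate 2, 3 without transplant replicate 3 and 5 without sedentary replicate 3, and the signs of the 5 genes held in each of these fits. With replicates 1 and 2 only, 2 members passed, Hoxa7 (-2.62, SE 0.22, adjusted p = 0.0181) and Hoxa9 (-2.12, SE 0.21, adjusted p = 0.0210). edgeR and DESeq2 each called 5 members, all lower, where they called 7.29% and 9.92% of all genes lower. Neutrophil markers (7 of 7 listed) summed to 2019 to 3022 RPM in sedentary and 8397 to 10540 in transplant HSC. Mpo held most of this sum, at 1809 to 2597 and 6268 to 8132 RPM. HSC markers (8 of 8 listed) summed to 778 to 903 and 478 to 543. Within them Cd34 measured 593, 622 and 489 against 288, 236 and 201 RPM. Hlf, Mecom and Fgd5 were also lower without overlap and Procr overlapped. Slamf1 was higher, at 1.59, 1.77 and 1.64 against 10.3, 4.88 and 3.43 RPM. Their part in the HoxA differences was not tested, and neither was that of depth, which is highest in replicate 3 of both groups.

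Partners and regulators of Hox genes were counted over whole lists. Of 9 cofactors, the Meis, Pbx and Pknox proteins that bind DNA with Hox proteins, all were tested in each comparison and 0 passed outside the comparison of tissues. Of 29 upstream regulators, chiefly the trithorax-type proteins that keep Hox genes active and the Polycomb proteins that silence them, 26 were tested. Only Cbx2, a Polycomb subunit that reads a histone mark, passed outside that comparison: it fell in transplant against sedentary HSC by a log2 fold change of -1.41 (SE 0.19, limma adjusted p = 0.0159). In their own tables, Cbx2 measured 792, 829 and 695.8 normalized reads in sedentary and 266.6, 287 and 411 in transplant HSC. At an unadjusted p under 0.05, 8 of the 26 regulators were lower and 0 higher there, where 13.8% and 17.9% of all genes were. Besides Cbx2 they were Ezh2 (-0.43), Eed (-0.49), Psip1 (-0.37), Phc2 (-0.33), Mllt1 (-0.34), Ash2l (-0.31) and Ctcf (-0.27), with adjusted p from 0.0616 to 0.123.

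Among cofactors in that comparison, Pknox2 (3.24, SE 0.81, limma adjusted p = 0.0570) was higher and Pknox1 (-0.43, SE 0.17, adjusted p = 0.150) lower at an unadjusted p under 0.05. Against active HSC, Cbx2 (-1.06), Kmt2a (-0.45), Kdm6b (-0.37) and Ezh2 (-0.32) were lower and Pknox2 (1.87) higher at that level, with adjusted p from 0.165 to 0.266. With the other column of active replicate 2 none of the 5 had an unadjusted p under 0.05, at -0.44, -0.41, -0.31, -0.11 and 0.27 in the same order. Cbx2 measured 759.6 normalized reads in the column used and 194.2 in the other, and Pknox2 6.70 and 200.6, each on the scale of its table. In tumours, Pknox2 (-0.50) in active against sedentary animals of week 12, Meis2 (-1.59) in those of week 18 and Meis2 (-1.45), Bmi1 (0.29) and Phc2 (0.48) between the weeks reached an unadjusted p under 0.05, with adjusted p from 0.389 to 0.970. In the interaction Kmt2a (-0.68) and Kdm6a (-0.44) did. Between tissues, 4 cofactors were higher in tumours (among them Meis3 5.90, Meis2 5.23 and Pknox2 5.10) and 3 lower (Meis1 -2.24, Pknox1 -1.37, Pbx2 -0.46), as were 6 and 13 of the 26 regulators, where 38.1% of all genes were higher and 34.9% lower. Of 13 other transcripts of the clusters, 3 or 4 were tested in tumours and none passed. Hoxb3os (2.40) in active tumours of week 12 was higher at an unadjusted p under 0.05. So was Hoxaas2 (1.40) in those of week 18, with 0 reads in all 3 sedentary and 4, 1 and 1 reads in active libraries. There Hoxaas2 passed the filter only through the active group and could only come out higher, so its p is no support. Hoxaas2 was lower at week 18 than at week 12 (-2.11, SE 0.45, limma adjusted p = 0.374).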

How the data were processed

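RNA sequencing libraries of 12 tumours and 9 HSC samples were analysed from 4 tables that the authors deposited. Each holds a signal per gene that the authors had normalized before they deposited it. Every column consists of whole multiples of 1 step, so reads were recovered by division, and 100% of values came out whole within 0.01 reads. The authors' deposited tables also give a log2 fold change, a p-value and an adjusted p-value per gene, quoted only where named and turned to active over sedentary where needed. Reads were mapped to mm10, per the submitters' processing notes. The aligner and counter were not given in the sources used here.

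The design asked for a count test on raw counts and limma on normalized values. The values being normalized, limma 3.58.1 was run on log2(value + 1) for genes whose mean reached 1 in a compared group, with Benjamini-Hochberg adjustment over all genes tested and a threshold of 0.05. For 2 tables together, recovered reads were scaled by the median of ratios. edgeR 4.0.16 and DESeq2 1.42.0 were alternatives, and the steps were tested on simulated data. RPKM used exonic lengths of GENCODE M21, joined by symbol. No molecular identifiers were used, so floors (3 reads) cover counting error only.

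Members and lists were chosen with earlier results of these data known. Named members were those past the adjusted threshold or, with none, at most 6 with an unadjusted p under 0.05, plus the 5 highest of each tissue. Values of some genes are not reported here. Same-numbered libraries were checked for shared deviations from their group means: all 3 correlations exceeded 0.1 only at week 18 in tumours (0.164, 0.159 and 0.139) and for transplant with active HSC (0.105, 0.116 and 0.318). The numbers could mark pairs there, but the main fits and their p-values do not use them. With the replicate number as a block, members at an unadjusted limma p under 0.05 went from 4 to 5 and from 6 to 8 in these comparisons. The labels do not say what a number shares.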

Additional observations from a re-analysis of the deposited data

How the results depend on the processing

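Alternatives covered the filter, the pseudocount, the scaling, the tool, the replicate number as a block, and each library left out. The other column of active replicate 2 was applied to HSC levels, shares and the lists of partners and regulators after seeing the data. Over 41 results on named members, 613 of 663 alternatives kept sign and side of the threshold, 38 lost the call, 11 gained it and 1 changed sign. That one was Hoxa9 in transplant against active HSC, at 0.034 with the other column of replicate 2. DESeq2 called 3 members in active against sedentary tumours at week 12, 4 between the weeks and 4 in transplant against active HSC, where limma called 0 in each. In transplant against sedentary HSC limma called 5. With the replicate block it called 0 there (99 of all genes were called in place of 1553), with replicates 1 and 2 only it called 2, and without 1 library 0 to 5. The labels name no batch for these numbers, and the 3 correlations of same-numbered libraries did not all exceed 0.1 there. However, replicate 3 was deeper in both groups, at 58500940 reads in sedentary and 72417315 in transplant HSC. Replicates 1 and 2 of the HSC groups held at most 24574563. The block changed no call on members in the other 7 comparisons, including the 2 where same-numbered libraries deviated together. Over all genes it left 0 of 99 calls in active tumours of week 12, 0 of 2 in the interaction and 0 of 7 in transplant against active HSC. Counts over all genes moved by more than 1.5 times under DESeq2, from 99 to 208 in active tumours of week 12, from 2 to 174 in the interaction, from 7 to 1107 in transplant against active HSC and from 1553 to 3187 against sedentary HSC, and from 0 to 52, 351 and 257 in active tumours of week 18, between the weeks and in active HSC. Without 1 library they ran from 9 to 71, 0 to 23, 0 to 79 and 237 to 1674 in the first 4 of these. Of 56 alternative cluster shares, 52 moved by less than the SD between libraries. Members with few reads, such as Hoxa2, Hoxc6 and Hoxd10, are limited by depth.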
